A study of Mus musculus with 4 samples.

Results

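*Gdpd3*, *BC018473*, *Neb*, *D13Ertd608e*, *Gm21762* and *Gm20186* are 6 of the 32285 genes counted in the single-cell libraries, and they were chosen because their counts lay far apart between a WT and a dKO library of hepatic CD4 T cells. The size and direction of these all-cell differences are therefore given as descriptions. What the choice did not use is whether the difference kept its size in each kind of cell, how the counts were spread over cells and T cell clones, and how neighbouring genes and gene copies behaved. *Gdpd3* and *BC018473* were nearly absent from the WT-labelled library in every class of cells and present in the dKO-labelled library, with at least 40 UMIs in each of 11 of 12 classes. *Neb* and *Gm20186* were found in both libraries, with a ratio that changed from class to class. *D13Ertd608e* and *Gm21762*, a pair of near-identical genes, were restricted almost wholly to plasmacytoid dendritic cell-like (pDC-like) cells and went in opposite directions. The split of counts between them is uncertain, and counted together they did not lie apart between the libraries over all cells. Within pDC-like cells their sum was 2.03-fold higher in the WT-labelled library.

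The dKO mice carried Nr4a1 fl/fl and Nr4a2 fl/fl alleles with Cd4-Cre, a transgene that deletes floxed segments in the T cell lineage and is active from the stage at which thymocytes carry both CD4 and CD8. The other library was labelled WT, with no further alleles named in the labels. All mice were fed CD, a choline-deficient diet with 60 kcal% fat and 0.1% methionine, for 8 weeks, and the age of the mice behind these libraries was not used here. Hepatic CD4 T cells of 2 mice were pooled for each genotype. Each pool gave 1 expression library and 1 T cell receptor library. The expression libraries were of 10x 5′ chemistry, in which a unique molecular identifier (UMI) stands for 1 captured RNA molecule. With 1 library per genotype no test of genotype could be made. Intervals below are exact 95% intervals that cover counting error only, so the difference between the libraries cannot be told apart from a difference between the mice, pools or runs.

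The WT-labelled library held 10556 cells and 23437516 UMIs after filtering and the dKO-labelled library 17462 cells and 37794986 UMIs, with medians of 1679 and 1685 UMIs per cell. Over all cells, *Nr4a1* and *Nr4a2* went against the label of the dKO library. *Nr4a1* had a level of 725 CPM (counts scaled to a total of 1000000 UMIs) in the WT-labelled and 1659 CPM in the dKO-labelled library. *Nr4a2* had 183 and 306 CPM. These levels include cells outside the T cell lineage, and levels in T cells alone are not given here. The counts are per gene and do not separate floxed exons from the rest, so both libraries are named by their labels throughout. Among genes named after their values were seen, *Foxp3*, the defining factor of Treg cells, had 43.6 and 168 CPM, and the cytokine gene *Il10* 7.81 and 79.4 CPM. The study reports more cells with either gene in a dKO Treg cluster, the direction of these counts. The methods describe male mice, whereas *Xist* had 451 and 536 CPM and 4 Y-linked genes together had 4 and 11 UMIs. Barcodes of 245 cells occurred in both libraries, and they carried 2.23% and 1.47% of the UMIs. The libraries are described as CD4 T cells, yet 1641 and 4101 cells passed a pDC-like gate. These had *Siglech* at 2323 and 1905 CPM and *Cd3e* at 150 and 131 CPM.

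GDPD3 is a membrane enzyme of the glycerophosphodiester phosphodiesterase family that cleaves lysophospholipids and yields lysophosphatidic acid. Nebulin, the product of *Neb*, is a giant actin-binding protein that runs along the thin filaments of skeletal muscle. NR4A receptors are orphan nuclear receptors induced by T cell receptor signals, and as monomers they bind a DNA element called NBRE. *BC018473* is annotated as an antisense RNA and *Gm20186* as a long intergenic RNA, so neither has an assigned protein. *D13Ertd608e* and *Gm21762* are annotated as protein coding, in a cluster of related genes near the end of chromosome 13.

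The positions are those of GENCODE M21 on GRCm38, the assembly that mm10 stands for. *Gdpd3* (ENSMUSG00000030703) lies on the plus strand at chr7:126766334-126775649 and *Neb* (ENSMUSG00000026950) on the minus strand at chr2:52136647-52378474. *BC018473* (ENSMUSG00000056032) lies on the plus strand at chr11:116752167-116759373 and *Gm20186* (ENSMUSG00000106874) on the minus strand at chr6:18845910-18848207. *D13Ertd608e* (ENSMUSG00000095514) is on the plus strand at chr13:119836006-119846570, and *Gm21762* (ENSMUSG00000094027) is 368 kb away on the minus strand at chr13:120214593-120215947. The members thus come from 5 chromosomes, and *Neb* is the one that shares a chromosome with *Nr4a2*.

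The chromosome 13 sequences are shown first, because their likeness bears on every count of these genes. A *D13Ertd608e* transcript of 704 bases aligned without gaps over its whole length to a *Gm21762* transcript of 830 bases, and 1 base differed (99.9% identity). That base was A93G, with positions counted from 1 at the start codon of the 456-base coding sequence of *Gm21762*, the *D13Ertd608e* base given before the position and the *Gm21762* base after it. The 61 bases around it are printed below from the GENCODE transcripts, with the differing base in capitals:

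D13Ertd608e: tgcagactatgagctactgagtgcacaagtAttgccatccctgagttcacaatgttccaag

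Gm21762: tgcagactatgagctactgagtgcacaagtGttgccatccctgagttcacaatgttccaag

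Of the 694 stretches of 31 bases (31-mers) in the *D13Ertd608e* transcripts, 643 were also in *Gm21762*, and 51 were found in no other gene. Of the 800 in *Gm21762*, 157 were its own. How reads that match both genes were treated is not given in the sources used here, and the split of counts between the genes is uncertain for that reason. The other members were more easily told apart, though the split of counts between *Gm20186* and *Gm12840* is uncertain as well. *Gdpd3* shared 0 of 2242 31-mers with another gene, *Neb* 24 of 26032 and *BC018473* 53 of 5496, whereas *Gm20186* shared 367 of 1044, of which 357 with *Gm12840*.

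To identify the 2 non-coding members, the opening 120 bases of the first exon of 1 GENCODE transcript each are given, in the direction of transcription. That of *BC018473* is at chr11:116752167-116752286 on the plus strand, and that of *Gm20186* at chr6:18846644-18846763 on the minus strand, which lies inside the span of the gene and not at its outer end. No part is capitalised, since no stretch within them was tested:

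BC018473: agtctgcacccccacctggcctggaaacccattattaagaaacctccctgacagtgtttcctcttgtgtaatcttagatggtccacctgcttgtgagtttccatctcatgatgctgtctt

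Gm20186: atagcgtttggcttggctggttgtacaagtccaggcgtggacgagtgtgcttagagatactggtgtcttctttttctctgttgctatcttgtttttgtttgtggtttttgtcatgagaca

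For *Gdpd3*, the member of the highest ratio, the sequence upstream of the gene was read from the RefSeq promoter table (GRCm38.p6, plus strand), which held 1 of the 6 members. The 170 bases at chr7:126766164-126766333 end where the GENCODE gene begins, and the 20 bases nearest to that start are in capitals:

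Gdpd3: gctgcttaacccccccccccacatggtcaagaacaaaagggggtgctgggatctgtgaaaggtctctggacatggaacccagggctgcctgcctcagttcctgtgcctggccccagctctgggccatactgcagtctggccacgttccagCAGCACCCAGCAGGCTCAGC

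The NBRE letters AAAGGTCA were searched on both strands of the 300-base promoter window. They were not in the *Gdpd3* window, and 1.51% of 32851 promoters of that length held them. This says only that these letters are not in this window.

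*Gdpd3* had 15 UMIs in the WT-labelled library, or 0.640 CPM (0.358 to 1.06), and 15336 UMIs in the dKO-labelled library, or 406 CPM (399 to 412). The level was 634-fold higher in the latter (384 to 1133). A *Gdpd3* UMI was found in 0.142% of WT-labelled and 42.1% of dKO-labelled cells, with up to 15 UMIs in a cell. It ranked 1st from the dKO end of the 8609 genes with at least 10 CPM in a library. *BC018473* had 5 and 4415 UMIs, 0.213 CPM (0.0693 to 0.498) and 117 CPM (113 to 120), a 548-fold difference (234 to 1687). Its UMIs were in 0.0474% and 16% of cells. By the mean of the CPM of each cell, the *BC018473* ratio was 347-fold, within that interval.

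*Neb* had 266 and 4394 UMIs, 11.3 CPM (10.0 to 12.8) and 116 CPM (113 to 120), and was 10.2-fold higher in the dKO-labelled library (9.05 to 11.6). *D13Ertd608e* had 113 and 2052 UMIs, 4.82 and 54.3 CPM, and was 11.3-fold higher there (9.32 to 13.7). The remaining pair went the other way. *Gm21762* had 1298 and 231 UMIs, 55.4 and 6.11 CPM, and was 9.06-fold higher in the WT-labelled library (7.87 to 10.5). *Gm20186* had 1078 and 105 UMIs, 46.0 and 2.78 CPM, a 16.6-fold difference (13.5 to 20.4). *Gm12840*, which shares sequence with *Gm20186*, had 4.69 and 1.64 CPM and was not counted together with it. Counted together, the near-identical *D13Ertd608e* and *Gm21762* had 60.2 and 60.4 CPM. With 1 cell per clonotype, *Neb* was 6.32-fold higher in the dKO-labelled library (log2 ratio 2.66, 2.32 to 3.02). *Gdpd3*, from 1 WT-labelled UMI, was 1821-fold higher there (10.83, 8.35 to 16.14). *D13Ertd608e* was 6.07-fold higher (2.60, 1.49 to 3.91), from 8 and 41 UMIs. As pDC-like cells held 100% and 99.7% of its UMIs, this value is mainly one of pDC-like cells with receptor chains, not of T cells at large.

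All 6 members had at least 10 CPM in a library, and all lay past 4-fold, 4 higher in the dKO-labelled and 2 in the WT-labelled library. Among all 8609 genes, 0.987% lay past 4-fold, 0.685% toward dKO and 0.302% toward WT. As the members were picked for this ratio, nothing is read from that count.

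Cells were then divided by marker genes into 12 classes that do not overlap, none of them gated on a member. A T cell with at least 1 *Foxp3* UMI was Treg-like unless an earlier gate, such as that for cycling cells, had taken it. Other T cells are those that passed no other gate, so a Treg cell in which no *Foxp3* UMI was captured falls among them, and the make-up of this class can differ between the libraries. A class was assessed for a gene where the higher library held at least 20 UMIs of it. Within the classes, among the 522 to 11274 genes with at least 30 UMIs in a class over both libraries, 0.254% to 3.72% lay past 4-fold toward dKO and 0.193% to 1.20% toward WT.

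**Figure D1:**
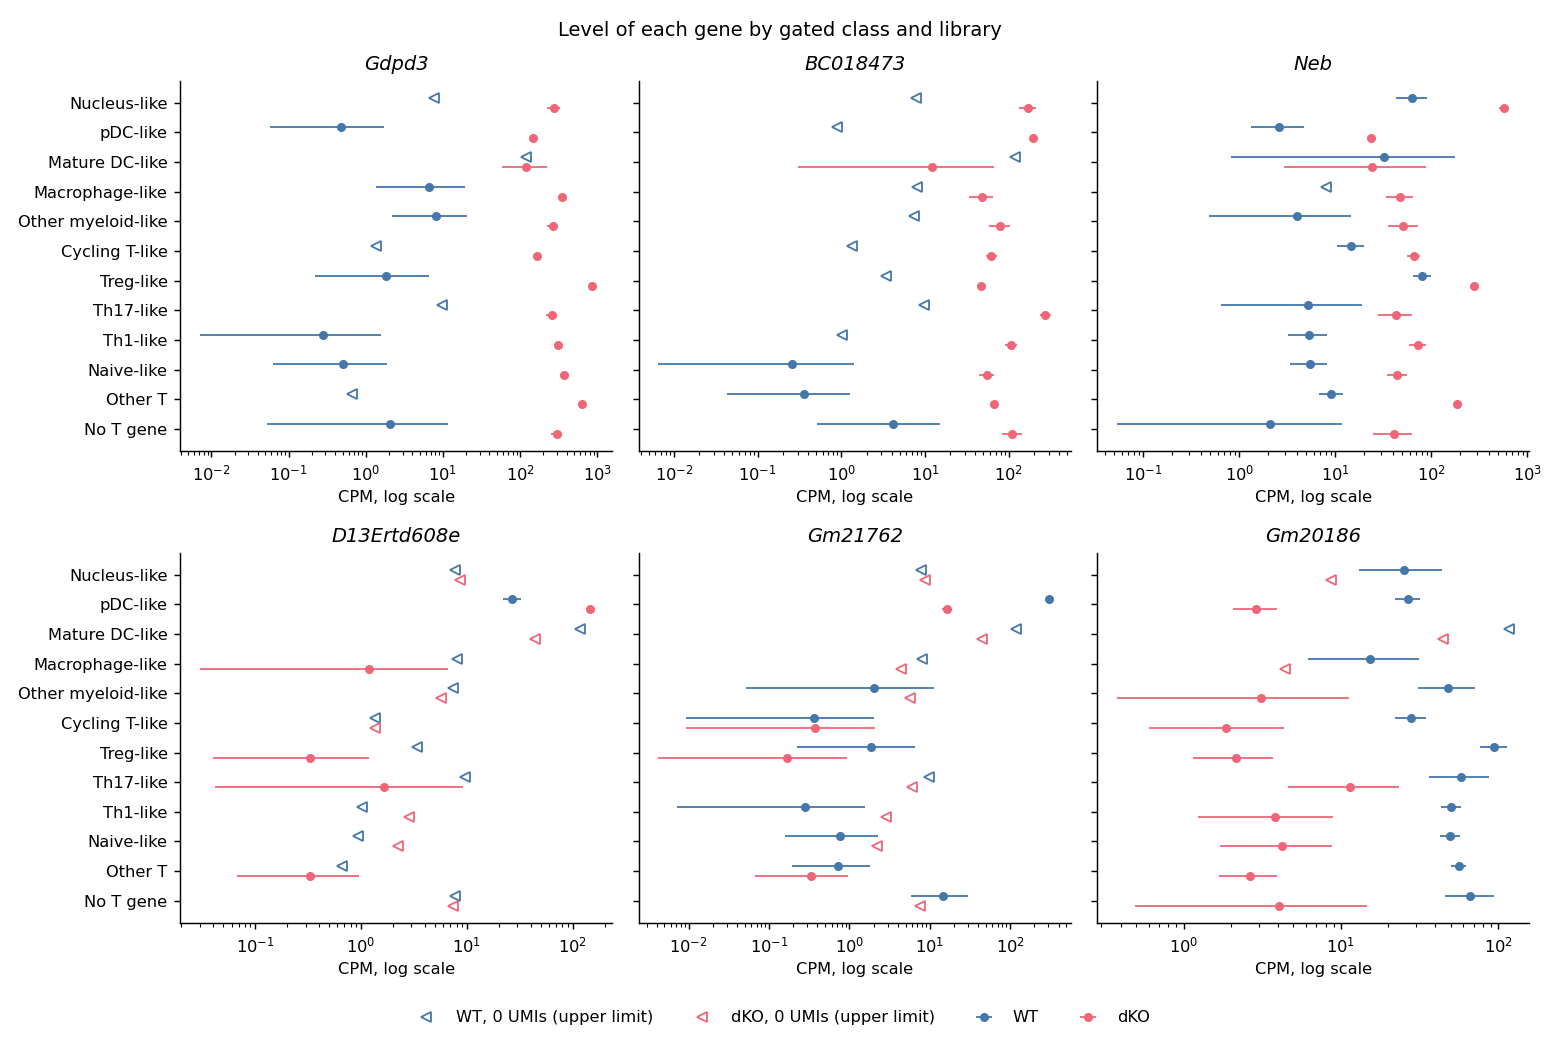
Level of each of the 6 genes in 12 marker-gated classes, in CPM on a log scale, in the WT-labelled (blue) and dKO-labelled (red) library; bars are exact 95% Poisson intervals and open triangles mark the upper limit where a class had 0 UMIs. *Gdpd3* and *BC018473* are separated in every assessed class, *D13Ertd608e* and *Gm21762* stand out in pDC-like cells alone, and *Gm20186* lies higher in the WT-labelled library in all 9 assessed classes.

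*Gdpd3* was far higher in the dKO-labelled library in all 11 assessed classes. In that library its level was highest in Treg-like cells, at 843 CPM (820 to 866), and in Other T cells, at 641 CPM (625 to 658). It was 372 CPM in Naive-like, 311 CPM in Th1-like, 257 CPM in Th17-like and 168 CPM in Cycling T-like cells. Among the assessed classes it was lowest in pDC-like cells, at 146 CPM (140 to 153). The spread over classes within this library was thus wider than the counting error. In the WT-labelled library no class held more than 4 *Gdpd3* UMIs, and 4 of the assessed classes held 0.

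The *Gdpd3* ratio was 459-fold in Treg-like cells (127 to 3788), from 2 UMIs in the WT-labelled library. It was 723-fold in Naive-like cells (199 to 5986), also from 2 UMIs, and 306-fold in pDC-like cells (84.7 to 2531). With so few UMIs in the lower library the intervals are wide, and 8 of the 11 held the all-cell ratio. The exceptions lay on both sides. The ratio was lower in Macrophage-like cells, 53.8-fold (18.2 to 262), and in Other myeloid-like cells, 32.7-fold (12.6 to 122). It was higher in Other T cells, where 0 UMIs in 5617648 stood against 5850, at least 1201-fold by a floor of 3 counts, with an exact interval from 976-fold upward. No single ratio lay within all 11 intervals.

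*BC018473* was detected in the dKO-labelled library in another order of classes. Its level was highest in Th17-like cells, at 275 CPM (235 to 320), and in pDC-like cells, at 197 CPM (190 to 205), which held 62.1% of its UMIs. It was 170 CPM in Nucleus-like, 108 CPM in Th1-like and 66.3 CPM in Other T cells. Treg-like cells, in which *Gdpd3* was highest, had 47.0 CPM (41.7 to 52.8) of *BC018473*. The pair with the highest ratios was therefore ordered differently over the classes of 1 library.

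In the WT-labelled library, *BC018473* had 0 UMIs in 8 of the 11 assessed classes, and the 5 UMIs lay in Naive-like, Other T and No T gene cells. The difference was at least 276-fold in pDC-like cells and at least 129-fold in Th1-like cells by the floor of 3 counts, with exact intervals from 224-fold and 103-fold upward. Of the 11 intervals, 10 held the all-cell ratio. The exception was the No T gene class, 26.2-fold (6.90 to 222), from 2 UMIs in 371 WT-labelled cells. In 8 of the classes the interval had no upper end, so that it held any ratio above its lower one, and no single ratio lay within all 11.

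**Figure D2:**
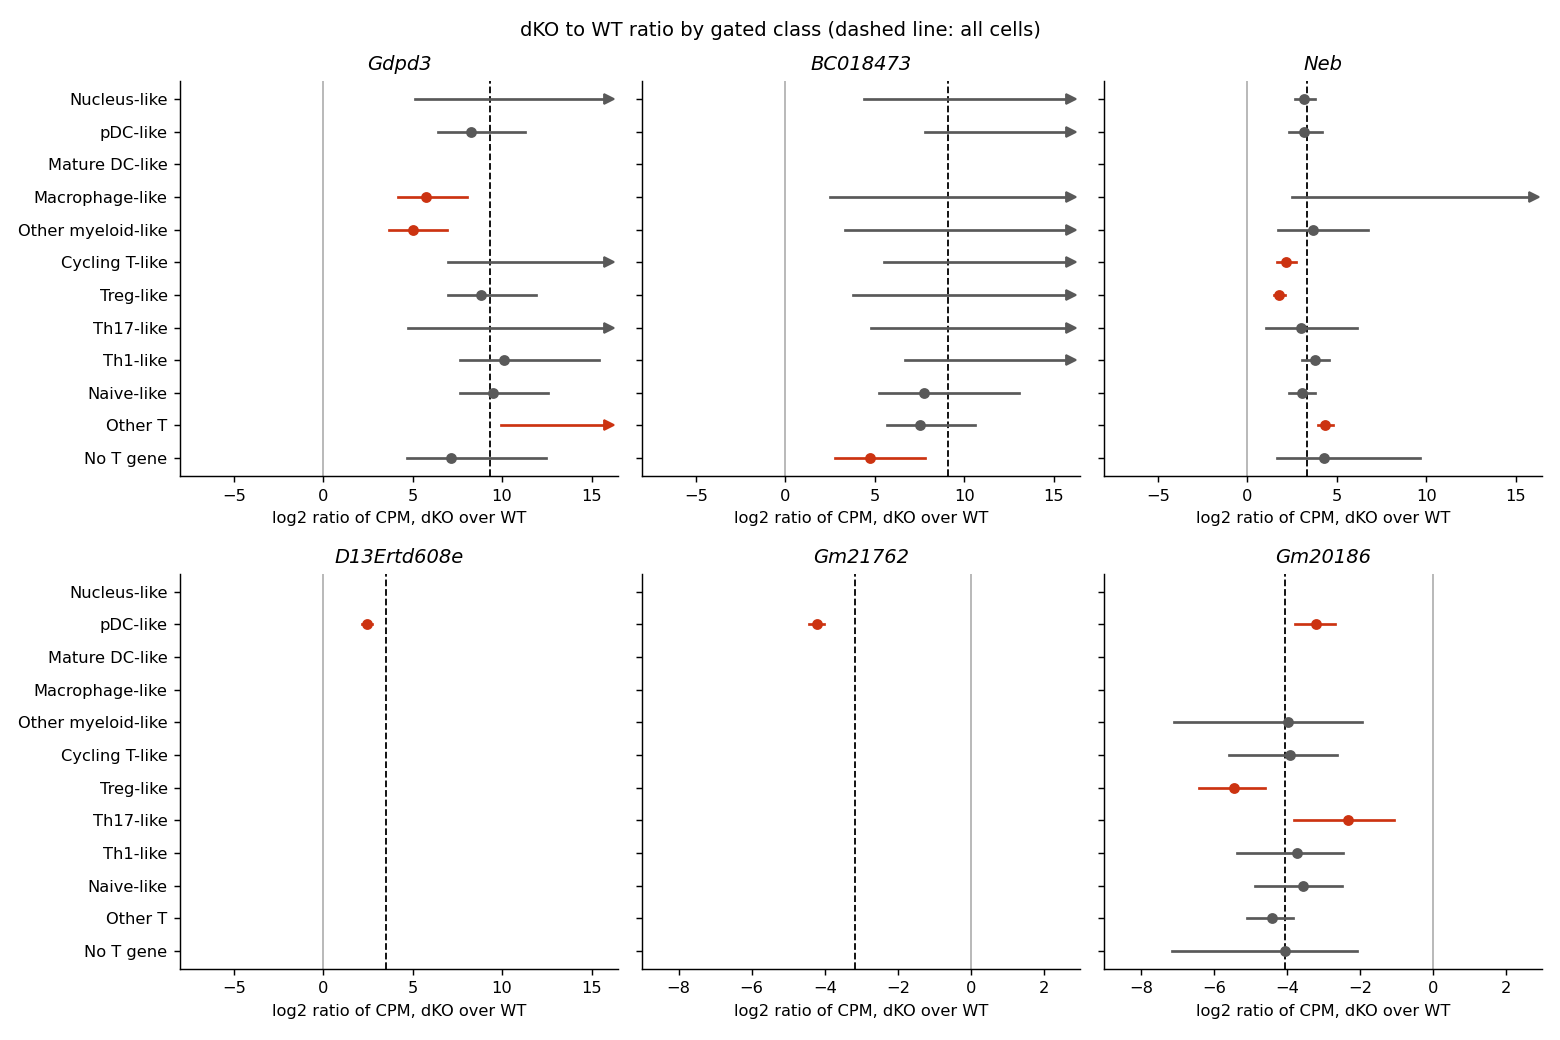
Log2 ratio of CPM, dKO-labelled over WT-labelled library, in each class with at least 20 UMIs in the higher library; points are ratios, bars exact 95% intervals, arrows open ends where the lower library had 0 UMIs, the dashed line the ratio over all cells, and red marks intervals that do not hold it. For *Gdpd3*, *BC018473* and *Neb* 8, 10 and 8 of 11 intervals hold the all-cell ratio, for *Gm20186* 6 of 9, and for the chromosome 13 genes the single pDC-like interval does not.

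*Neb*, with more UMIs in the lower library, allowed a closer reading. Nucleus-like cells, defined by ribosomal protein genes under 6% of UMIs, had 62.9 CPM (42.5 to 89.8) in the WT-labelled and 576 CPM (506 to 653) in the dKO-labelled library. Treg-like cells had 80.9 CPM (64.9 to 99.6) and 277 CPM (263 to 290). Nucleus-like cells were thus the higher of the pair in the dKO-labelled library, and in the other library their intervals overlapped. The Nucleus-like gate took different cells in the libraries, with the myeloid gene *Lyz2* at 41.9 and 2345 CPM and the proliferation gene *Mki67* at 736 and 212 CPM, and the part of this in the *Neb* levels was not tested. In the WT-labelled library these classes were above all other assessed ones, whose levels ran from 0 in Macrophage-like to 14.6 CPM in Cycling T-like cells.

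The *Neb* ratio was not constant. It was 3.42-fold in Treg-like cells (2.76 to 4.29) and 4.50-fold in Cycling T-like cells (3.18 to 6.51), against 20.3-fold in Other T cells (15.4 to 27.4). The interval of Other T cells overlaps neither of the others, and none of these holds the all-cell value. As Other T cells can include Treg cells without a *Foxp3* UMI, these values are ratios of gated classes, and whether the ratio differs within 1 kind of cell was not tested. The other 8 of the 11 intervals held the all-cell value. Among them were Nucleus-like cells at 9.15-fold (6.25 to 13.9), Th1-like cells at 13.7-fold (8.31 to 23.8) and Naive-like cells at 8.19-fold (4.98 to 14.0). Treg-like cells made up 4.08% of WT-labelled and 18.3% of dKO-labelled cells. Pooled over the gated classes by the Mantel-Haenszel method, the *Neb* ratio was 8.33-fold, a weighted value that still depends on the class sizes where class ratios differ.

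*Gm20186* was higher in the WT-labelled library in each of its 9 assessed classes. There its level was highest in Treg-like cells, at 93.7 CPM (76.4 to 114), and between 49.6 and 66.8 CPM in Naive-like, Th1-like, Other T, Th17-like and No T gene cells. It was 26.7 CPM in pDC-like cells (22.0 to 32.1). In the dKO-labelled library all classes but Th17-like cells, at 11.5 CPM (4.61 to 23.6), were at or below 4.24 CPM. The ratio ran from 5.05-fold in Th17-like cells (2.08 to 14.0) and 9.26-fold in pDC-like cells (6.40 to 13.6) to 43.5-fold in Treg-like cells (24.4 to 84.6), and these 3 intervals did not hold the all-cell ratio. The other 6 did, with values from 11.7-fold in Naive-like to 21.4-fold in Other T cells. *Gm12840*, which shares sequence with *Gm20186*, had 1.66 CPM in Treg-like and 6.12 CPM in Th1-like cells of the dKO-labelled library. *Gm20186* had 2.15 and 3.83 CPM there. In the WT-labelled library *Gm12840* had 4.59 and 4.75 CPM in these classes. The genes were not counted together, so the class ratios of *Gm20186* rest on an uncertain split of counts. The direction of *Neb* and *Gm20186* in Treg-like cells was opposite, and so was the rank of that class, where *Neb* had its lowest and *Gm20186* its highest ratio.

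*D13Ertd608e* and *Gm21762* were counted almost only in pDC-like cells, which held 100% of the WT-labelled and 99.7% of the dKO-labelled *D13Ertd608e* UMIs and 98.5% and 97.8% of those of *Gm21762*. In that class *D13Ertd608e* was at 26.9 CPM (22.2 to 32.4) in the WT-labelled and 147 CPM (141 to 154) in the dKO-labelled library, 5.47-fold higher in the latter (4.52 to 6.67). *Gm21762* was at 305 CPM (288 to 322) and 16.3 CPM (14.2 to 18.5), 18.7-fold higher in the WT-labelled library (16.2 to 21.7). Neither interval held the all-cell ratio of its gene, 11.3-fold and 9.06-fold. As pDC-like cells made up 15.5% of WT-labelled and 23.5% of dKO-labelled cells, with medians of 1699 and 3076 UMIs, the all-cell ratios of both genes carry the class share as well as the level.

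Counted together, the near-identical pair had 332 CPM (315 to 350) in WT-labelled and 164 CPM (157 to 170) in dKO-labelled pDC-like cells, a 2.03-fold difference. *Gm21762* made up 91.9% (90.3 to 93.3) of the joint UMIs in the WT-labelled library and 9.95% (8.75 to 11.3) in the dKO-labelled one. Over all cells the joint level was 60.2 CPM (57.1 to 63.4) and 60.4 CPM (58.0 to 62.9), so the pair taken as 1 gene did not lie apart between the libraries. Both genes were found in the same cell in 61 of 1641 WT-labelled and 117 of 4101 dKO-labelled pDC-like cells. Of the other genes that share a 31-mer with *Gm21762* and are in the tables, *2310057M21Rik*, which shares 1, had 36 and 123 UMIs in these cells, and none of the rest had more than 4 in a library.

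**Figure D3:**
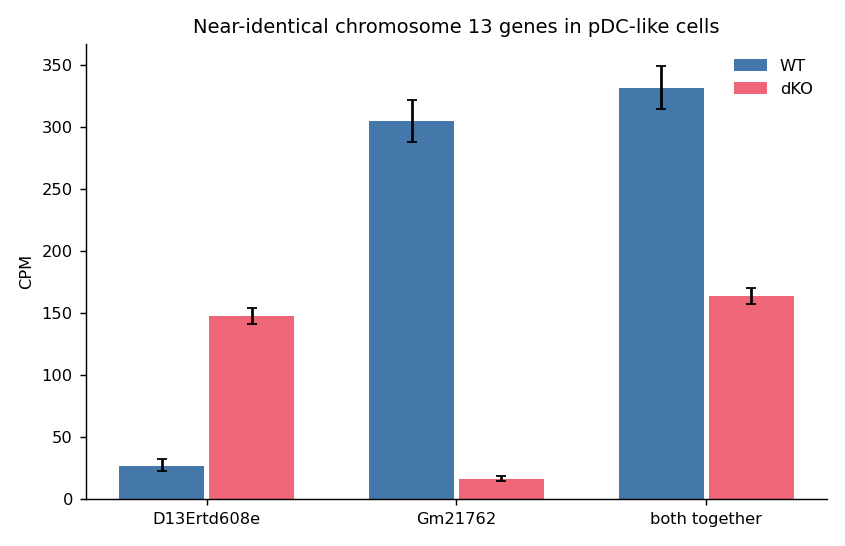
Level of the near-identical chromosome 13 genes *D13Ertd608e* and *Gm21762*, apart and summed, in pDC-like cells of the WT-labelled (blue, 1641 cells) and dKO-labelled (red, 4101 cells) library, in CPM with exact 95% Poisson intervals. The genes swap places, 26.9 and 305 CPM against 147 and 16.3 CPM, while their sum is 332 and 164 CPM.

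Gated classes other than T cells still held T cell RNA, so the values were recomputed in cells with 0 UMIs of *Cd3e*, *Cd3d*, *Cd3g*, *Trac*, *Trbc1* and *Trbc2* and no receptor beta chain (TRB) contig, a choice made after the values were seen. This left 1161 WT-labelled and 2995 dKO-labelled pDC-like cells. *BC018473* was then at 0 UMIs and at 217 CPM (208 to 227), at least 175-fold higher in the dKO-labelled library by the floor (exact interval from 142-fold upward), with a UMI in 37.1% of those cells. *Gdpd3* was at 0.828 and 94.9 CPM, 115-fold (31.6 to 948), with a UMI in 0.172% and 19.7% of cells. *Gdpd3* also remained at 227 CPM in 92 Macrophage-like and 224 CPM in 93 Other myeloid-like cells of the dKO-labelled library, against 1 UMI in each of these classes of the other library. The ratios there, 34.8-fold (6.05 to 1395) and 34.9-fold (6.06 to 1396), had intervals that held the all-cell ratio, unlike those of the whole classes.

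For *Neb* this selection changed the value. Its level in pDC-like cells of the dKO-labelled library was 3.96 CPM in place of 23.8 CPM, and the ratio was 2.39-fold (0.857 to 9.25) in place of 9.07-fold (5.0 to 18.3), so that no difference was detectable there at this depth. *D13Ertd608e* (5.46-fold), *Gm21762* (19.97-fold) and *Gm20186* (7.98-fold) stayed within their intervals for the whole class. Among pDC-like cells without T cell genes the differences in *Gdpd3*, *BC018473*, *Gm20186* and the chromosome 13 genes were thus also present. In the myeloid classes this held for *Gdpd3* alone. *BC018473* was left with 2 UMIs in Macrophage-like cells of the dKO-labelled library (6.39 CPM) and 3 in Other myeloid-like cells (9.46 CPM), against 0 in the WT-labelled library, too few to show a difference. The other members had at most 1 UMI in either library there.

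For shares of cells at equal depth, 1000 UMIs were drawn from each cell, and the 1929 WT-labelled and 3071 dKO-labelled cells with fewer were set aside. A *Gdpd3* UMI was then found in 0.104% (0.0477 to 0.198) of 8627 WT-labelled and 28.7% (28.0 to 29.5) of 14391 dKO-labelled cells. By class in the dKO-labelled library the share was 50.8% (48.9 to 52.7) in Treg-like, 36.5% (35.1 to 37.9) in Other T, 26.4% in Macrophage-like, 25.8% in Naive-like and 11.1% (10.1 to 12.1) in pDC-like cells. The shares in Treg-like, Other T and pDC-like cells thus differed by more than their intervals. Before thinning, 0 of 3575 Other T cells of the WT-labelled library had a UMI, and 3 counts would be a share of 0.0839%. No class is known to lack *Gdpd3*, and the part of free RNA in these shares was not tested.

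The thinned share with *BC018473* was 9.04% (8.58 to 9.52) of dKO-labelled cells. It was 20.4% (16 to 25.5) in Th17-like, 16.1% (15 to 17.3) in pDC-like and 4.25% (3.51 to 5.10) in Treg-like cells. Cycling T-like cells, at 4.09% (2.58 to 6.13), and Macrophage-like cells, at 3.90% (1.80 to 7.27), were near the value of Treg-like cells. In the WT-labelled library 2 of 8627 cells had a UMI. *Neb* was found in 1.10% (0.892 to 1.34) and 10.3% (9.78 to 10.8) of cells, and in Treg-like cells in 8.63% (5.97 to 12) and 23.6% (22.0 to 25.3). *Gm20186* was found in 4.22% (3.80 to 4.67) and 0.264% (0.187 to 0.362) of cells, with 8.89% (6.20 to 12.3) and 0.230% (0.0844 to 0.50) of Treg-like cells.

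For the chromosome 13 genes T cells serve as the background. *Gm21762* was found in 23.8% (21.4 to 26.2) of WT-labelled and 1.49% (1.14 to 1.91) of dKO-labelled pDC-like cells, against 0.111% (0.0228 to 0.323) and 0.0214% of Other T cells. *D13Ertd608e* was found in 2.18% (1.44 to 3.16) and 13.5% (12.4 to 14.6) of pDC-like cells, against 0 of 2710 and 0.0214% of Other T cells. Median depths before thinning were 2421 and 3080 UMIs in pDC-like and 1582 and 1407 UMIs in Other T cells. The shares in pDC-like cells were above this background in both libraries for both genes.

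In the classes with the most UMIs the counts were spread over many cells. In dKO-labelled Treg-like cells 2022 of 3191 cells (63.4%) had *Gdpd3* UMIs, 1329 of them at least 2, and a spread of the same UMIs in proportion to each cell's depth would give 72.9%. For *Neb* in the same cells the shares were 35.8% and 38.2%. For *BC018473* in pDC-like cells they were 37.6% and 47.1%, with up to 17 UMIs in a cell. In Macrophage-like and Other myeloid-like cells the observed *BC018473* shares, 7.53% and 10.5%, lay further below an even spread (15% and 25.1%), and single cells held up to 18 of 40 and 10 of 51 UMIs. For *Gm20186* in WT-labelled Other myeloid-like cells, the share was 6.43% against 12.6%, and 1 cell held 11 of the 24 UMIs, so the levels in these small classes rest on few cells.

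In the WT-labelled library no cell held more than 1 UMI of *Gdpd3* or *BC018473*. The 15 *Gdpd3* UMIs of the WT-labelled library were in 15 cells of 7 classes, and the 5 of *BC018473* in 5 cells, 0 of either in a cell whose barcode also occurred in the other library. For *Neb* 9 of 266 WT-labelled UMIs were in such cells, and up to 7 were in a cell. Of the 113 of *D13Ertd608e*, all in pDC-like cells, it was 1. In the dKO-labelled library it was 1 of 231 UMIs of *Gm21762* and 2 of 105 of *Gm20186*. Cells that share a barcode thus held few or none of these UMIs. Of the 15 *Gdpd3* UMIs, 3 were in the 136 Macrophage-like and 4 in the 171 Other myeloid-like cells, at 6.57 and 8.06 CPM, so these classes held more of them than their share of the library.

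A T cell clone, cells with the same alpha and beta receptor chains, descends from 1 cell and so from 1 mouse of the pool. Each library had 8 clones of at least 20 cells, with 279 WT-labelled and 501 dKO-labelled cells. *Gdpd3* had 0 UMIs in all 8 WT-labelled clones (0 of 755782 UMIs) and was present in all 8 dKO-labelled clones. Its levels there were 73.8, 145, 151, 294, 298, 678, 844 and 1226 CPM. The interval of 1 of these 8 clones held the 432 CPM of all cells with a clonotype, so clones differed by more than counting error.

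*BC018473* was at 0 in all 8 WT-labelled clones and present in 7 of 8 dKO-labelled clones, at up to 167 CPM, and all 8 intervals held the 80.4 CPM of all cells with a clonotype. *Neb* was present in 2 WT-labelled clones, at up to 24.7 CPM, and in all 8 dKO-labelled clones, between 50.2 and 446 CPM. *Gm20186* was present in all 8 WT-labelled clones, between 11.8 and 145 CPM, and in 3 dKO-labelled ones, at up to 18.6 CPM. For *Gdpd3* and *Neb* the levels of these WT-labelled and dKO-labelled clones did not overlap, and for *BC018473* and *Gm20186* they did. The choice of the genes fixed the direction and favours such a separation. The share of all genes whose clone levels do not overlap was not computed, so nothing is read from the separation. With clones of at least 10 cells, 19 WT-labelled and 20 dKO-labelled, *Gdpd3* still did not overlap, from 27.1 CPM upward against 0. *Neb* then did, with UMIs in 18 of the 20 dKO-labelled clones and up to 35.0 CPM in WT-labelled ones.

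**Figure D4:**
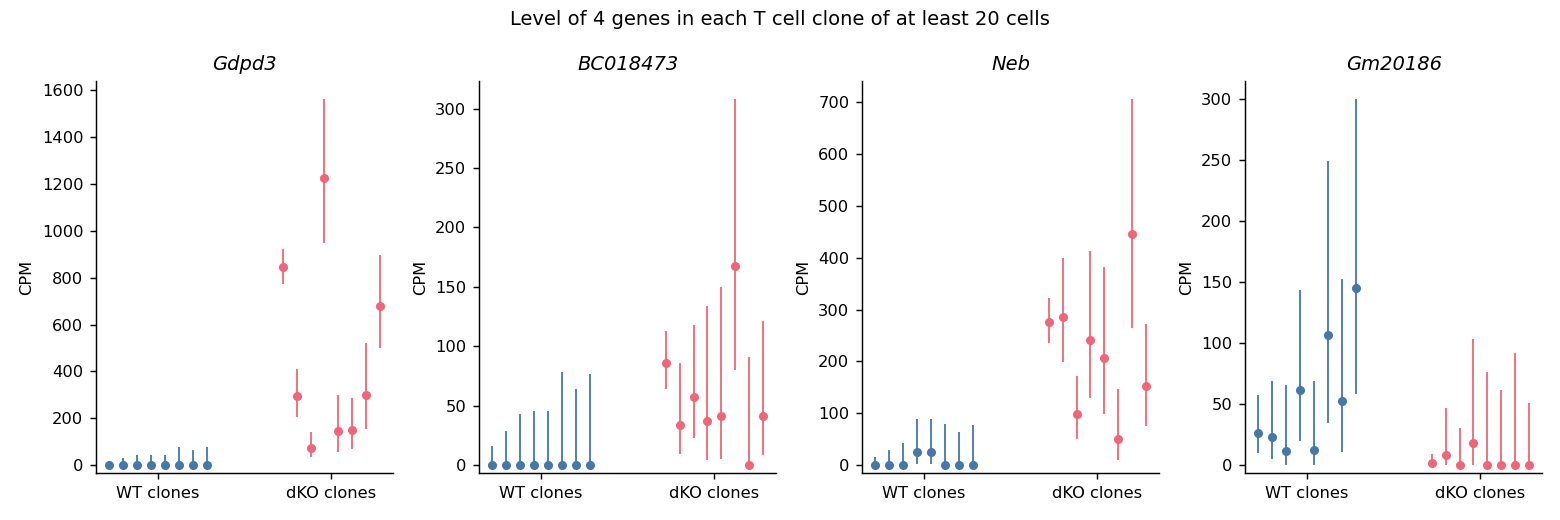
Level of *Gdpd3*, *BC018473*, *Neb* and *Gm20186*, in CPM, in each T cell clone of at least 20 cells, 8 in the WT-labelled (blue) and 8 in the dKO-labelled (red) library, from the largest clone at the left; bars are exact 95% Poisson intervals. *Gdpd3* is at 0 in the WT-labelled clones and between 73.8 and 1226 CPM in the dKO-labelled ones.

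Neighbouring genes, whose ratios did not enter the choice, mostly lay within 4-fold. Around *Gdpd3* all 45 genes within 1 Mb did. *Mapk3*, which ends 0.515 kb before it, had a log2 ratio (dKO-labelled over WT-labelled) of 0.10, and *Ypel3*, 1.31 kb after it, of 0.50. *Gm9967*, which overlaps *Gdpd3* on the opposite strand, had 10 and 87 UMIs. As the strand setting of the counts is not given in the sources used here, whether reads of genes overlapping on opposite strands were kept apart is not known.

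*BC018473* had 30 genes within 1 Mb, of which *St6galnac2*, a sialyltransferase gene 57.3 kb before it, lay past 4-fold, with 68 and 851 UMIs (log2 ratio 2.96). *St6galnac2* was highest in Th1-like (45.9 CPM) and Th17-like (45.8 CPM) cells of the dKO-labelled library and at 5.55 CPM in pDC-like cells, a class in which *BC018473* was high. On the other side *Jmjd6*, 78.1 kb away, had a log2 ratio of -0.27. Of 9 genes near *Neb*, *Rnd3*, 988 kb away, lay past 4-fold over all cells (2.19). In pDC-like cells, which held 1712 of its 1834 dKO-labelled UMIs, it had 54.3 and 123 CPM and lay within 4-fold. *Arl5a*, 19.5 kb after *Neb*, had 58.0 and 196 CPM (1.75), and *Rif1*, 14.3 kb before it, 79.3 and 53.2 CPM (-0.57). *Gm13522*, which overlaps *Neb* on the opposite strand, had 15 and 104 UMIs.

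Near the chromosome 13 pair, *BC147527*, 84.4 kb beyond *Gm21762*, had 686 and 68 UMIs (log2 ratio -4.02), and in pDC-like cells 105 and 3.96 CPM. It went in the direction of *Gm21762*, and unlike that gene it was also found in T cells, with 15.7 and 0.438 CPM in Other T cells. *Zfp131* (-0.12) and *Gm36161* (0.59), the nearest measured genes on either side of *D13Ertd608e*, lay within 4-fold. *Lsm8*, an RNA-binding protein gene 0.372 kb from *Gm20186*, had a log2 ratio of -0.65, and *St7*, 903 kb away, of 0.27. Counting each neighbour of any member once, 3 of 92 lay past 4-fold over all cells (3.26%), *Rnd3* among them, beside 0.987% of all genes.

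**Figure D5:**
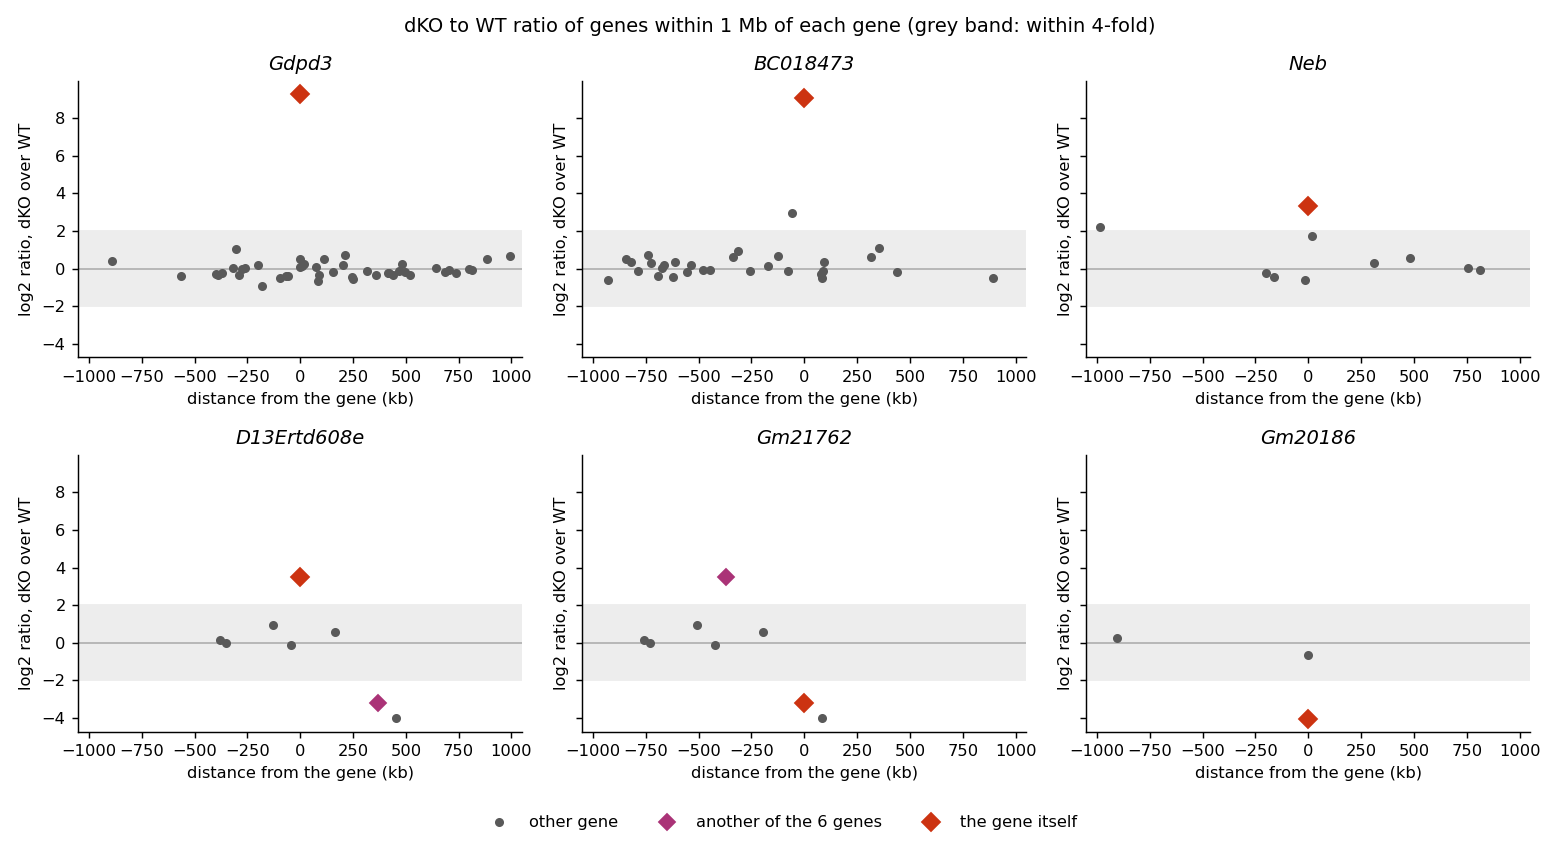
Log2 ratio (dKO-labelled over WT-labelled library) of each gene with at least 10 CPM in a library within 1 Mb of each of the 6 genes, against its distance in kb; red diamonds are the gene itself, purple diamonds another of the 6, and the grey band covers ratios within 4-fold. All 45 neighbours of *Gdpd3* lie in the band, and *St6galnac2* (2.96), *Rnd3* (2.19) and *BC147527* (-4.02) lie outside it.

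*Neb* lies 4.73 Mb from *Nr4a2*. Of the 31 genes with at least 10 CPM within 10 Mb of *Nr4a2*, *Neb*, *Rnd3* (5.96 Mb, log2 ratio 2.19) and *Tanc1* (2.49 Mb, -2.73) lay past 4-fold over all cells, or 9.68%. Without *Neb*, which was picked for its ratio, it was 2 of 30 (6.67%), beside 0.987% of all genes. Of these 2, *Rnd3* lay within 4-fold in pDC-like cells, as given above. Within 10 Mb of *Nr4a1* it was 1 of 71, the keratin gene *Krt83* (0.210 Mb, -2.33). These genes went in both directions. Among genes with at least 50 CPM, of which 0.696% lay past 4-fold over the whole genome, *Neb* alone was left near *Nr4a2*, so that 0 of 16 lay past 4-fold without it.

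Genes related to the 2 members of known protein function are described without comparison with those members, which were picked for their ratio. Of 11 further GDPD family and lysophospholipid enzyme genes, 5 had at least 10 CPM and 0 lay past 2-fold, with a median log2 ratio of 0.32, beside 6.52% of all genes past 2-fold (3.51% toward dKO and 3.01% toward WT). They included *Gpcpd1* (132 and 153 CPM), which hydrolyses glycerophosphocholine, *Faah* (58.2 and 40.8 CPM, log2 ratio -0.51), a fatty acid amide hydrolase, and *Gde1* (27.3 and 34.1 CPM). Of 17 genes of the nebulin family and thin filament, 9 were measured, with a median of -0.06. The highest were the actin genes *Actb* (9985 and 8001 CPM, -0.32) and *Actg1* (3663 and 3753 CPM, 0.04). Of the nebulin relatives, *Nebl*, which encodes the related nebulette, was higher in the WT-labelled library, with 87.2 and 28.0 CPM (-1.64), and *Lasp1* had 73.0 and 51.0 CPM (-0.52).

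Of 16 skeletal muscle genes 3 had at least 10 CPM and 6 had 0 UMIs in both libraries, the myosin heavy chain genes *Myh1*, *Myh2* and *Myh4* among them. *Ttn*, which encodes titin, had 7.13 and 24.5 CPM (1.78), and *Actn2* 32.2 and 12.7 CPM (-1.34). *Tnni2*, a troponin gene, had 9.34 and 16.3 CPM (0.80). The muscle list thus had 1 gene past 2-fold in each direction, beside 3.51% of all genes toward dKO and 3.01% toward WT. *Neb* was found without the main muscle myosins. Of 6 hepatocyte genes 0 reached 10 CPM, and their summed level was 4.39 and 5.03 CPM.

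Likeness of pattern was measured as Pearson's r of log2(CPM + 10) over 24 points, the 12 classes of each library, among 6634 genes with at least 20 CPM in a library. The points of 1 library share its depth and mice, so a library difference alone makes genes alike. *BC018473* was the gene most like *Gdpd3* (0.89), followed by *Tmem158* (0.85). *Neb* was most like the integrin gene *Itgb8* (0.91; 6.06 and 60.6 CPM) and its neighbour *Arl5a* (0.90). For *D13Ertd608e* they were *Pgam2* (0.97) and *Cdh5* (0.92), for *Gm21762* *Cd209d* (0.93) and *A430035B10Rik* (0.92), and for *Gm20186* *Btg2* and *Gm19951* (0.80 each). After *Gdpd3*, *mt-Atp8* (0.82) was most like *BC018473*.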

How the data were processed

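The deposited matrices hold raw UMI counts per gene and cell, made by the authors with Cell Ranger (7.0.1 in the matrix header) on mm10, with barcodes and receptor contigs beside them; read filters and strand setting are not given in the sources used here. Total counts were 23494155 (WT) and 37966611 (dKO). Kept were 10556 and 17462 cells, each above 200 genes and below 5% mitochondrial UMIs, close to the cell numbers the study states for the same genotypes. No doublet caller was run; likely doublets (at least 2 TRB chains, or the top 5% by UMIs) were left out as an alternative. UMIs were summed per library and class, divided by all UMIs (CPM) and given exact Poisson intervals; ratios have conditional binomial and shares Clopper-Pearson intervals. A count of 0 was bounded at 3 counts. The script was tested on simulated data. The genes named are the 6 members, Nr4a genes, nearest and overlapping genes, those past 4-fold near Nr4a1 and Nr4a2, the highest genes of each list, the nebulin relatives *Nebl* and *Lasp1*, the myosins at 0 and the 2 most alike. Members, gates and lists were chosen with earlier results of these data known. Python 3.11.15, scipy 1.17.1 and, for TMM factors, edgeR 4.0.16 were used. Alternatives are listed in the closing section.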

Additional observations from a re-analysis of the deposited data

How the results depend on the processing

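Log2 ratios (dKO-labelled over WT-labelled) below are against the all-cell values of 9.31 for *Gdpd3*, 9.10 for *BC018473*, 3.36 for *Neb*, 3.49 for *D13Ertd608e*, -3.18 for *Gm21762* and -4.05 for *Gm20186*. Of 48 recomputed all-cell ratios, 37 stayed within the interval of the main value, and 11 moved out of it. One of these, *Gm21762* counted together with its near-identical copy, came to 0.00 (0.00484, interval -0.09 to 0.10), which holds 0, and *D13Ertd608e* then has the same value. In pDC-like cells the sum was at -1.02 (-1.12 to -0.92), the direction of *Gm21762*; this alternative was chosen after seeing the data. *Gm20186* was not recomputed together with *Gm12840*. With TRB-positive cells only, *Gm21762* was at -2.92. With 1 cell per clonotype, *Gdpd3* was at 10.83, *Neb* at 2.66 and *D13Ertd608e* at 2.60. The mean of cell CPM gave 3.86 for *Neb* and -3.60 for *Gm21762*. Pooled over classes, *Neb* was at 3.06, *D13Ertd608e* at 2.46 and *Gm21762* at -4.19. TMM factors, all deposited cells, and leaving out shared barcodes or likely doublets moved none beyond its interval. With 0 WT-labelled UMIs, *BC018473* gave no ratio with TRB-positive cells or 1 cell per clonotype. In pDC-like cells without T cell genes *Neb* was at 1.26 in place of 3.18.

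With gate thresholds doubled, 2 classes in place of 1 were assessed for *Gm21762*. Of these, 1 interval held its all-cell ratio, where 0 of 1 had. Shares of cells in the higher library moved with the thinning, which also sets which cells enter: not thinned and thinned to 2000 UMIs they were 42.1% and 32.4% for *Gdpd3*, 16% and 19.6% for *BC018473*, 17.6% and 11.5% for *Neb*, 8.07% and 12.8% for *D13Ertd608e*, 6.55% and 7.44% for *Gm21762*, and 7.97% and 7.87% for *Gm20186*. At 50 CPM the neighbours past 4-fold numbered 0 for *BC018473*, *Neb* and *Nr4a1*, and 1 for *D13Ertd608e*, *Gm21762* and *Nr4a2*; that 1 was in each case another of the 6 genes, so that no other neighbour was left. A window of 5 Mb gave 1 for *Nr4a1* and 2 for *Nr4a2*, *Neb* included. With clones of at least 10 cells the clone levels of *Neb* overlapped between the libraries, and those of *Gdpd3* did not. Other causes of these shifts were not tested. No paired analysis was possible because each genotype has 1 library and no test was made. Precision is limited by the few UMIs of the lower library, 5 to 266 per gene over all cells.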
